A study of Arabidopsis thaliana with 12 samples.

Results

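Salt-treated Arabidopsis thaliana seedlings of the lines smeb-1 and smeb-2, mutated in the gene SmEb, were set against salt-treated Col-0, the wild type in whose background the lines stand. The comparison used 6 of the 12 RNA sequencing libraries of the study, namely the 2 salt-treated libraries of each genotype, chosen by their column names. Whole seedlings were 12 days old and had been placed in 200 mM NaCl for 6 h, and the other 6 libraries came from seedlings of the same 3 genotypes without added salt. All groups were grown on MS medium, the labels name no other allele or treatment, and they do not state the lesion of either smeb allele. A label field of the treated samples names cadmium where every other field names salt, and the harvest time of the controls is not given in the same way in all labels. A column name ends in 0 or 1, which is the name used here for a library of a group, and every pair of values is given in that order. Nothing states that the libraries of a group came from separate cultures, so a p-value reflects just the spread seen among these libraries, which may be technical.

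SmEb encodes the E subunit of the Sm ring, the ring of Sm proteins that sits on the U1, U2, U4 and U5 small nuclear RNAs at the core of the spliceosome. Salt stress in Arabidopsis raises abscisic acid, a hormone that acts by inhibiting the clade A PP2C phosphatases, and it raises protective proteins such as dehydrins. Salt also lowers transcripts of the light-harvesting antenna, the chlorophyll-binding proteins that feed the photosystems, and slows cell division and root growth. The title of the series names the salt response and the splicing of RCD1, a regulator of stress transcription factors, as its subject.

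Expression was deposited as FPKM, fragments scaled by transcript length and library total. Of 33559 genes, 20251 were tested, those with an FPKM of 1 or more in 2 or more of the 12 libraries. Differences are given as smeb minus Col-0 on the log2(FPKM + 1) scale with the SE of a limma fit, which shrinks differences of genes with low FPKM, and calls were made below an adjusted p of 0.05. The salt-treated libraries resembled each other in depth, at 0.815 to 1.1 on a relative scale estimated from low FPKM values, and read totals are unknown. The Col-0 salt pair stood apart: its libraries differed by a median of 0.167 in log2 over all tested genes, against 0.0847 to 0.0998 in the other 5 pairs. By at least 2-fold, 320 genes differed between the Col-0 salt libraries and 76 to 114 within the other pairs. Each main count is therefore also given for a fit with 1 weight per group, where Col-0 in salt had a weight of 0.343 and the other groups 1 to 1.41, and without either Col-0 salt library. A gene is said to hold below when it was called in the fit of all libraries, with 1 weight per group, and with each Col-0 salt library left out in turn, a combination chosen after the data had been seen. Where a value marked weighted follows an adjusted p, it is the adjusted p of the fit with 1 weight per group.

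SmEb itself, at chr2:8123195-8125078 in TAIR10.1, was lower in both lines. Its FPKM in salt was 73.3 and 76.1 in Col-0, 23.2 and 22.9 in smeb-1 and 1.92 and 2.04 in smeb-2. The 3 groups did not overlap, and smeb-2 lay far below smeb-1. The difference was -1.66 in smeb-1 and -4.67 in smeb-2, and smeb-2 minus smeb-1 was -3.01 ± 0.092 (adjusted p = 5.63e-07). SmEa, the close paralogue of SmEb, had FPKM of 27.1 and 23.53 in Col-0, 28.6 and 29.6 in smeb-1 and 25.5 and 26.0 in smeb-2. Both smeb-1 libraries lay above the others, smeb-2 overlapped Col-0, and SmEa was not called in the mean of the lines (difference 0.11 ± 0.081, adjusted p = 0.328), though reads of such close copies can be split either way. RCD1 had FPKM of 97.8 and 129.8 in Col-0, 94.3 and 85.9 in smeb-1 and 92.7 and 97.5 in smeb-2. The Col-0 library ending in 1 stood above the rest, and RCD1 was not called (difference -0.28 ± 0.10, adjusted p = 0.052). This rests on the Col-0 pair: without the library ending in 0 RCD1 was called lower (-0.48, adjusted p = 4.12e-04), and without the one ending in 1 it was not (-0.08, adjusted p = 0.437).

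In salt, 2592 genes were higher and 3025 lower in the mean of both smeb lines, so that 27.7% of the tested genes were called, 12.8% higher and 14.9% lower. These shares are the background of each list count in salt below. For list counts without salt the background was 11.6% of the tested genes higher and 13.0% lower, with a median difference of -0.0074. In salt the median difference over all tested genes was -0.034. Against Col-0, smeb-1 had 2520 genes higher and 3067 lower (27.6% of those tested), and smeb-2 had 1552 higher and 1231 lower (13.7%). In both lines and in the same direction 2313 genes were called, 1298 of them higher (6.41% of those tested) and 1015 lower (5.01%), and 1 gene was called in opposite directions. All 3 line contrasts use the same Col-0 salt libraries. Most called differences were small, since 327 genes passed in the mean of the lines with at least a 2-fold difference, and 153 did so in each line. With or without a test, 3655 genes (18.0%) had all 4 smeb libraries above both Col-0 libraries and 4560 (22.5%) had them below, together 40.6%.

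The Col-0 libraries carried different weight in these counts. The smeb mean lay nearer to the Col-0 library ending in 0 in 66.4% of tested genes. Without that library 7918 genes were called in the mean of the lines, and without the library ending in 1, 2982 were. With 1 weight per group 1828 genes were called, and 1685 held, 991 of them higher (4.89% of those tested) and 694 lower (3.43%). Of the 2313 genes called in both lines, 723 held in each line as well, 521 higher and 202 lower. The plot of call counts by setting shows these numbers in both directions.

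**Figure D1:**
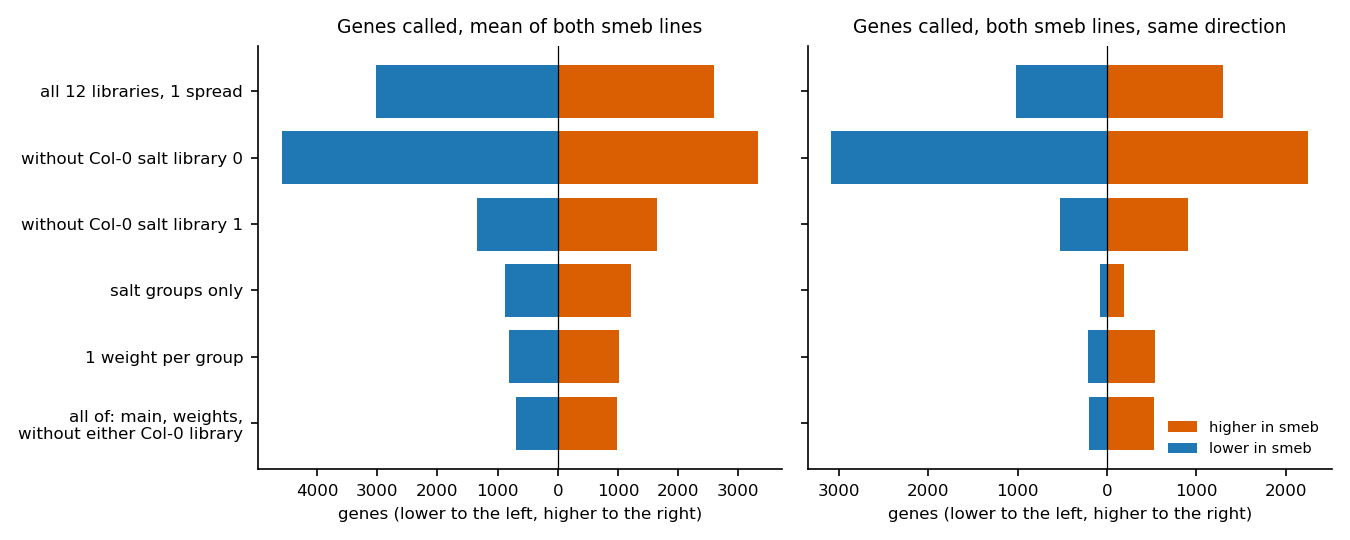
Genes called in salt against Col-0 for the mean of both smeb lines (left) and for both lines in the same direction (right); bars give the number lower (to the left) and higher (to the right) in smeb under each setting of the fit. The count was largest without the Col-0 library ending in 0 (7918 for the mean) and 1685 where all settings in the last row were asked for.

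Where the mean FPKM was 5 or more, the 10 rises and 10 falls named next had the widest gap between the nearest smeb library and the nearest Col-0 library in salt, so the absence of overlap is built into their choice. The largest rise with a level in every library was PR1, a secreted protein used as a marker of salicylate signalling. Its FPKM in salt was 12.4 and 23.4 in Col-0, 384 and 266 in smeb-1 and 319.6 and 227 in smeb-2. The 4 smeb libraries were far above both Col-0 libraries (difference 4.03 ± 0.36, adjusted p = 1.76e-04, weighted 0.00317). PR1 was also higher in smeb without salt (47.8 and 71.2 in Col-0, 813 and 768 in smeb-1 and 634 and 251 in smeb-2), and the effects with and without salt did not differ past the threshold (adjusted p = 0.366). Of the 15 tested salicylate and PR genes 2 rose, PR1, which held, and SARD1, a factor that activates salicylate synthesis, which did not. The other 13 did not pass, among them PR5 and BGL2. The share that rose, 13.3%, was near the 12.8% of all tested genes called higher.

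The other wide rises were of several kinds. NDB4, an NAD(P)H dehydrogenase of the mitochondrial inner membrane, had FPKM of 1.31 and 1.1 in Col-0, 7.72 and 7.68 in smeb-1 and 7.51 and 6.08 in smeb-2 (difference 1.90 ± 0.14, adjusted p = 6.98e-05, weighted 0.00179). ABCB11, a transporter of the P-glycoprotein family, had FPKM of 6.49 and 6.34 in Col-0, 32.9 and 27.1 in smeb-1 and 22.1 and 21.2 in smeb-2 (1.83 ± 0.088, adjusted p = 7.66e-06, weighted 1.71e-04). HEI10, a RING protein that acts in meiotic crossing over, had FPKM of 2.19 and 1.25 in Col-0, 12.7 and 12.3 in smeb-1 and 7.93 and 8.6 in smeb-2 (2.06 ± 0.12, adjusted p = 2.85e-05). In each of these the smeb libraries lay far above both Col-0 libraries, and HEI10 did so without salt too (0.433 and 0.537 in Col-0, 12.0 and 11.2 in smeb-1 and 7.52 and 7.31 in smeb-2). AT2G04070, annotated as a MATE efflux protein, had FPKM of 1.53 and 1.39 in Col-0, 16.9 and 12.6 in smeb-1 and 10.6 and 9.89 in smeb-2 (2.42 ± 0.12, adjusted p = 9.30e-06, weighted 2.62e-04). AT1G34050, annotated as an ankyrin repeat protein, had FPKM of 1.2 and 1.29 in Col-0, 12.0 and 9.71 in smeb-1 and 7.003 and 7.18 in smeb-2 (2.12 ± 0.10, adjusted p = 7.66e-06, weighted 1.71e-04). Without salt no library of either gene reached an FPKM of 1. AT4G04223, a noncoding RNA, had FPKM of 8.31 and 7.32 in Col-0, 54.4 and 59.8 in smeb-1 and 55.7 and 56.8 in smeb-2 (2.71 ± 0.084, adjusted p = 3.40e-07, weighted 8.78e-06). AT1G67105, another noncoding RNA, had FPKM of 3.48 and 3.99 in Col-0, 20.8 and 35.9 in smeb-1 and 42.2 and 24.7 in smeb-2 (2.70 ± 0.28, adjusted p = 2.85e-04). AT3G54530, of unknown function, had FPKM of 1.17 and 1.19 in Col-0, 8.55 and 8.48 in smeb-1 and 7.27 and 5.91 in smeb-2 (1.96 ± 0.11, adjusted p = 2.85e-05). Without salt AT4G04223 had FPKM of 7.2 and 8.4 in Col-0, 57.5 and 59.0 in smeb-1 and 59.6 and 69.6 in smeb-2 (difference 2.83 ± 0.084, adjusted p = 2.28e-07). AT1G67105 and NDB4 were called higher without salt as well (adjusted p = 0.00313 and 0.00168), by 1.55 and 0.85, while AT3G54530 stayed under an FPKM of 1 in all 6 libraries.

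Among the falls with the widest gaps was HOL2, a relative of the methyl halide producing HOL1. Its FPKM was 14.5 and 18.9 in Col-0, 2.52 and 1.56 in smeb-1 and 4.38 and 3.42 in smeb-2 (difference -2.202 ± 0.14, adjusted p = 4.43e-05, weighted 5.09e-04). MYB121, a MYB transcription factor, had FPKM of 17.3 and 12.5 in Col-0, 1.18 and 1.51 in smeb-1 and 4.28 and 3.91 in smeb-2 (-2.19 ± 0.13, adjusted p = 2.85e-05, weighted 2.24e-04). Both genes were lowest in smeb-1, and MYB121 was near 0 in all libraries without salt. JRG21, a 2-oxoglutarate-dependent oxygenase induced by jasmonate, had FPKM of 39.4 and 121 in Col-0, 13.6 and 17.1 in smeb-1 and 13.5 and 18.0 in smeb-2 (-2.10 ± 0.35, adjusted p = 0.00273), and PDF1.2, a defensin, had FPKM of 9.79 and 31.3 in Col-0, 2.34 and 0.52 in smeb-1 and 4.24 and 3.96 in smeb-2 (-2.46 ± 0.42, adjusted p = 0.00298). In both, the Col-0 libraries differed widely from each other, the one ending in 1 being higher. AT5G03545, annotated as expressed in phosphate starvation, had FPKM of 72.5 and 139.6 in Col-0, 27.4 and 10.6 in smeb-1 and 27.2 and 20.7 in smeb-2 (-2.26 ± 0.36, adjusted p = 0.00229). AT1G14120, an oxygenase of the same broad family as JRG21, had FPKM of 25.6 and 25.7 in Col-0, 10.9 and 10.3 in smeb-1 and 7.82 and 11.0 in smeb-2 (-1.29 ± 0.11, adjusted p = 1.26e-04). In this gene the Col-0 libraries were nearly equal. AT1G77520, an O-methyltransferase, had FPKM of 11.2 and 8.35 in Col-0, 2.51 and 3.41 in smeb-1 and 2.83 and 3.36 in smeb-2 (-1.42 ± 0.13, adjusted p = 1.92e-04). AT5G10625, annotated as flowering-promoting factor-like, had FPKM of 34.3 and 46.1 in Col-0, 14.3 and 14.9 in smeb-1 and 17.2 and 17.3 in smeb-2 (-1.27 ± 0.12, adjusted p = 1.93e-04). In both genes every smeb library was below both Col-0 libraries.

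A further pair of short genes in these sets was listed at exactly 0 in a whole group, which can be a failed estimate, so no fold is given. U1.5, annotated as a small nuclear RNA gene, was listed at FPKM of 0 and 0 in Col-0, 25.7 and 27.1 in smeb-1 and 9.8 and 9.61 in smeb-2. Without salt it was listed at 98.4 and 32.6 in Col-0, 85.4 and 55.4 in smeb-1 and 85.9 and 16.2 in smeb-2, so the libraries of a pair differed widely there as well. AT4G30097, of unknown function, was listed at 22.6 and 36.8 in Col-0, 0 and 0 in smeb-1 and 0 and 0 in smeb-2. The 5 genes that differed most between the Col-0 salt libraries (AT5G10336, AT3G01319, AT1G11055, AT5G04790 and AT5G64401) were each listed at 0 in 1 library of that pair, and none was called.

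**Figure D2:**
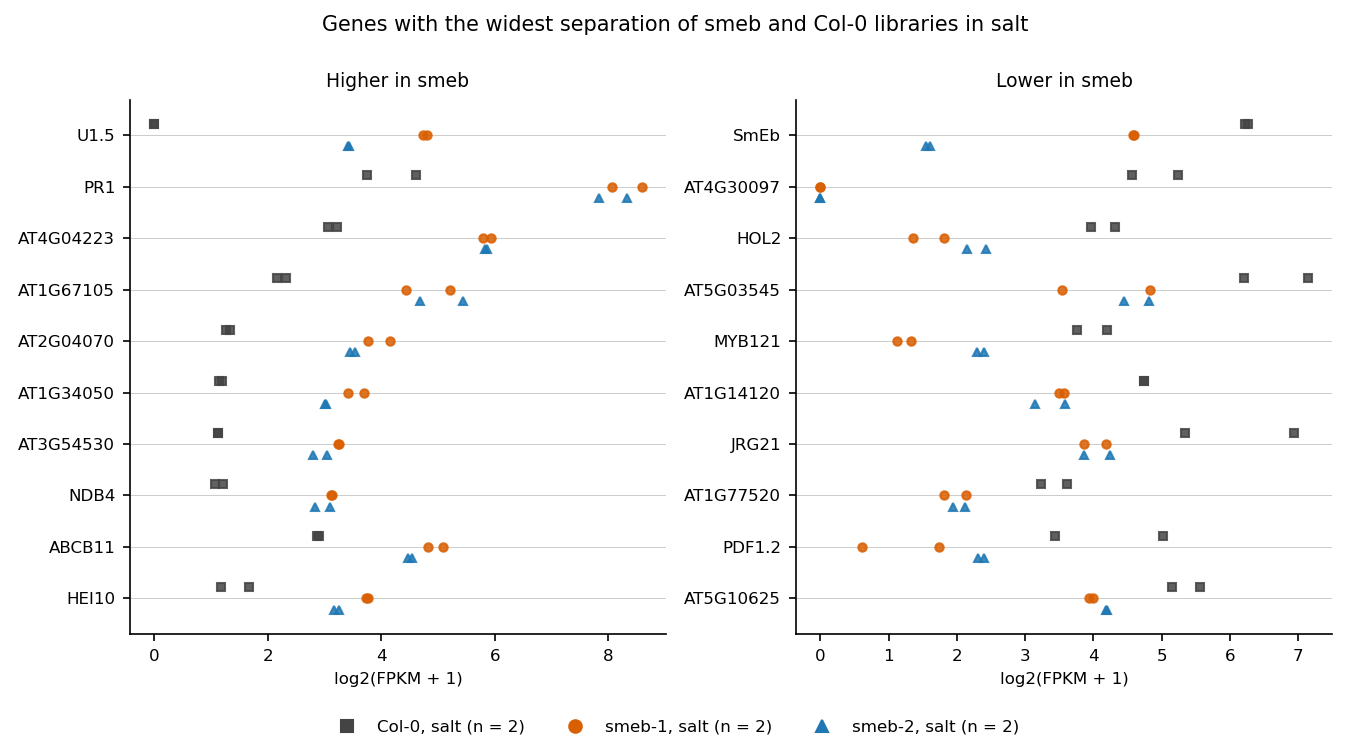
log2(FPKM + 1) in each salt-treated library (2 points a genotype) of the 10 rises (left) and 10 falls (right) with the widest gap between the smeb and Col-0 libraries. PR1 lies between 12.4 and 23.4 FPKM in Col-0 and between 227 and 384 in smeb, and SmEb is the gene in which smeb-1 and smeb-2 are farthest apart.

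Genes of the photosystems, their antenna and the Rubisco small subunit rose together: 22 of 23 tested members were higher in smeb in salt, 0 lower, and 1 did not pass. The median difference of the list was 0.746, against -0.034 over all tested genes, and all 22 held. LHCB3, of the trimeric antenna of photosystem II, had FPKM of 37.4 and 33.7 in Col-0, 135 and 136 in smeb-1 and 95.9 and 84.9 in smeb-2 (difference 1.61 ± 0.069, adjusted p = 4.83e-06, weighted 7.79e-05). LHCB2.1, of the same antenna, had FPKM of 17.9 and 14.9 in Col-0, 61.0 and 60.4 in smeb-1 and 45.6 and 43.4 in smeb-2 (1.61 ± 0.081, adjusted p = 9.17e-06, weighted 1.18e-04). LHCB4.2, of the minor antenna that links trimers to the core, had FPKM of 69.6 and 58.6 in Col-0, 190.2 and 186 in smeb-1 and 151 and 142 in smeb-2 (1.36 ± 0.07, adjusted p = 9.30e-06, weighted 7.79e-05). In all 3 genes the smeb-1 libraries were highest and the Col-0 libraries lowest, with no overlap. Up to 3 examples a list were picked by smallest p, here and below, so separation from Col-0 is largely built into their choice. Over all tested genes 40.6% had no overlap of smeb and Col-0 in salt. Reads of near-identical members, such as LHCB2.1 and LHCB2.2, may be shared between them.

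The rise reached other parts of the photosynthetic apparatus. PSBO1, of the oxygen-evolving complex, had FPKM of 1137 and 1075 in Col-0, 1601 and 1621 in smeb-1 and 1569 and 1641 in smeb-2 (difference 0.54 ± 0.056, adjusted p = 2.95e-04). PSAF, a photosystem I subunit, had FPKM of 678 and 569 in Col-0, 1173 and 1114 in smeb-1 and 956 and 931 in smeb-2 (0.74 ± 0.074, adjusted p = 2.74e-04). RBCS1A, the major Rubisco small subunit gene, had FPKM of 9668 and 7649 in Col-0, 13747 and 13039 in smeb-1 and 12188 and 12817 in smeb-2 (0.59 ± 0.10, adjusted p = 0.00273). LHCA1 was the member that did not pass, with FPKM of 146 and 214 in Col-0, 186 and 154 in smeb-1 and 192 and 190.0 in smeb-2. Summed over the list, FPKM was 27049.7 and 21695 in Col-0, 40946 and 40074 in smeb-1 and 36382 and 38110.1 in smeb-2 in salt. Without salt the sums lay between 88942 and 99093, so every salt-treated library was below every untreated library. Without salt 2 members were higher in smeb and 7 lower, and the smeb effect differed between the treatments in 18 members, all toward higher values in salt, by the interaction term of limma at an adjusted p under 0.05. The background of that interaction was 9.96% of tested genes, 6.18% toward higher and 3.78% toward lower values in salt, and the 18 members also passed with 1 weight per group. Since the tissue is a whole seedling, a change in the share of green cells and a change of these transcripts per cell cannot be told apart.

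Chlorophyll genes were higher in part. Of 17 tested, 9 were higher and 1 lower, with a median of 0.198, and 7 held. The 7 that held act in synthesis. CHLM, a methyltransferase of the magnesium branch, had FPKM of 106 and 97.4 in Col-0, 186 and 206 in smeb-1 and 179 and 179 in smeb-2 (difference 0.88 ± 0.058, adjusted p = 4.86e-05, weighted 6.39e-04). HEMA1, the glutamyl-tRNA reductase at the start of the pathway, had FPKM of 72.9 and 66.9 in Col-0, 142 and 128 in smeb-1 and 102 and 106 in smeb-2 (0.75 ± 0.061, adjusted p = 1.10e-04, weighted 0.00174), and PORB, a light-dependent reductase, had FPKM of 134 and 133 in Col-0, 274 and 251 in smeb-1 and 222 and 192 in smeb-2 (0.80 ± 0.067, adjusted p = 1.19e-04, weighted 0.00232). CHLH, GUN4, CAO and PORC were the others. Of the breakdown genes, PPH was lower in the mean of the lines (-0.50 ± 0.15, adjusted p = 0.0309) but did not hold. PAO, SGR1, SGR2, RCCR, NYC1 and NOL did not pass in that mean. The lines differed over the whole list, with 9 higher and 4 lower in smeb-1 and 7 higher and 0 lower in smeb-2. PPH and SGR1 were highest in the Col-0 library ending in 1.

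Marker genes of abscisic acid and osmotic stress were lower. Of 19 tested, 0 were higher, 15 lower and 4 did not pass, with a median of -0.674, and 7 held. RD29A, a hydrophilic protein used as a marker of drought, salt and cold, had FPKM of 1079 and 1224 in Col-0, 445 and 524 in smeb-1 and 578 and 670.4 in smeb-2 (difference -1.07 ± 0.11, adjusted p = 3.09e-04, weighted 0.00621). RD26, a NAC transcription factor, had FPKM of 125 and 134 in Col-0, 44.2 and 57.0 in smeb-1 and 86.0 and 102 in smeb-2 (-0.91 ± 0.13, adjusted p = 0.00136, weighted 0.0242). ERD10, a dehydrin, had FPKM of 842 and 816 in Col-0, 432 and 497 in smeb-1 and 543 and 643 in smeb-2 (-0.66 ± 0.10, adjusted p = 0.00204, weighted 0.0342). In each the Col-0 libraries were highest, smeb-2 in the middle and smeb-1 lowest. COR47, another dehydrin, had FPKM of 1193 and 1625 in Col-0, 639.7 and 764 in smeb-1 and 926 and 1091 in smeb-2 (-0.73 ± 0.12, adjusted p = 0.00313). LTI30, a dehydrin too, had FPKM of 433 and 548 in Col-0, 230.2 and 279 in smeb-1 and 321 and 357 in smeb-2 (-0.73 ± 0.14, adjusted p = 0.00464). ERD1, a protease subunit of the plastid, had FPKM of 148 and 230.4 in Col-0, 90.0 and 80.7 in smeb-1 and 110.2 and 126 in smeb-2 (-0.87 ± 0.14, adjusted p = 0.00253). In these 3 the Col-0 library ending in 1 was the highest. ATHB-12, a homeodomain factor, also held. RD29B, RAB18, ANAC019, MYB102, COR15A, COR15B, KIN2 and ATHB-7 were called but did not hold with 1 weight per group, where their adjusted p ran from 0.0592 to 0.251. RD20, RD22, KIN1 and LEA4-5 did not pass, and RD20 had FPKM of 655 and 672 in Col-0, 461 and 526 in smeb-1 and 604 and 765 in smeb-2.

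The lines were not equally far from Col-0 in these genes. In smeb-1, 16 of the 19 were lower with a list median of -0.939, and in smeb-2, 3 were lower with a median of -0.463. All 19 members lay farther from Col-0 in smeb-1, the line with more SmEb transcript, than in smeb-2. Tested directly, smeb-2 and smeb-1 differed in 0 of the 19 at an adjusted p under 0.05, by limma over all genes, where 58 genes (0.286%) were called and 2659 had an unadjusted p under 0.05. RD26 had the closest value of the 3 genes above, with smeb-2 minus smeb-1 at 0.89 ± 0.15 (adjusted p = 0.0513). In the photosystem and antenna list 20 of 23 members were likewise farther from Col-0 in smeb-1, with medians of 0.879 and 0.625, and LHCB3 was called between the lines (-0.58 ± 0.08, adjusted p = 0.0271).

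The abscisic acid markers were also lower in smeb without salt, in 13 of 19, with 1 higher and a median of -1.18. RD29A without salt had FPKM of 137 and 111 in Col-0, 20.6 and 24.0 in smeb-1 and 17.7 and 16.2 in smeb-2. Its difference was thus larger without salt (-2.61 ± 0.11) than in salt, and the effects differed by 1.54 ± 0.16 (adjusted p = 4.93e-04). In the list 5 members had a smeb effect that was higher in salt than without it and 1 had a lower effect, at the same threshold.

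**Figure D3:**
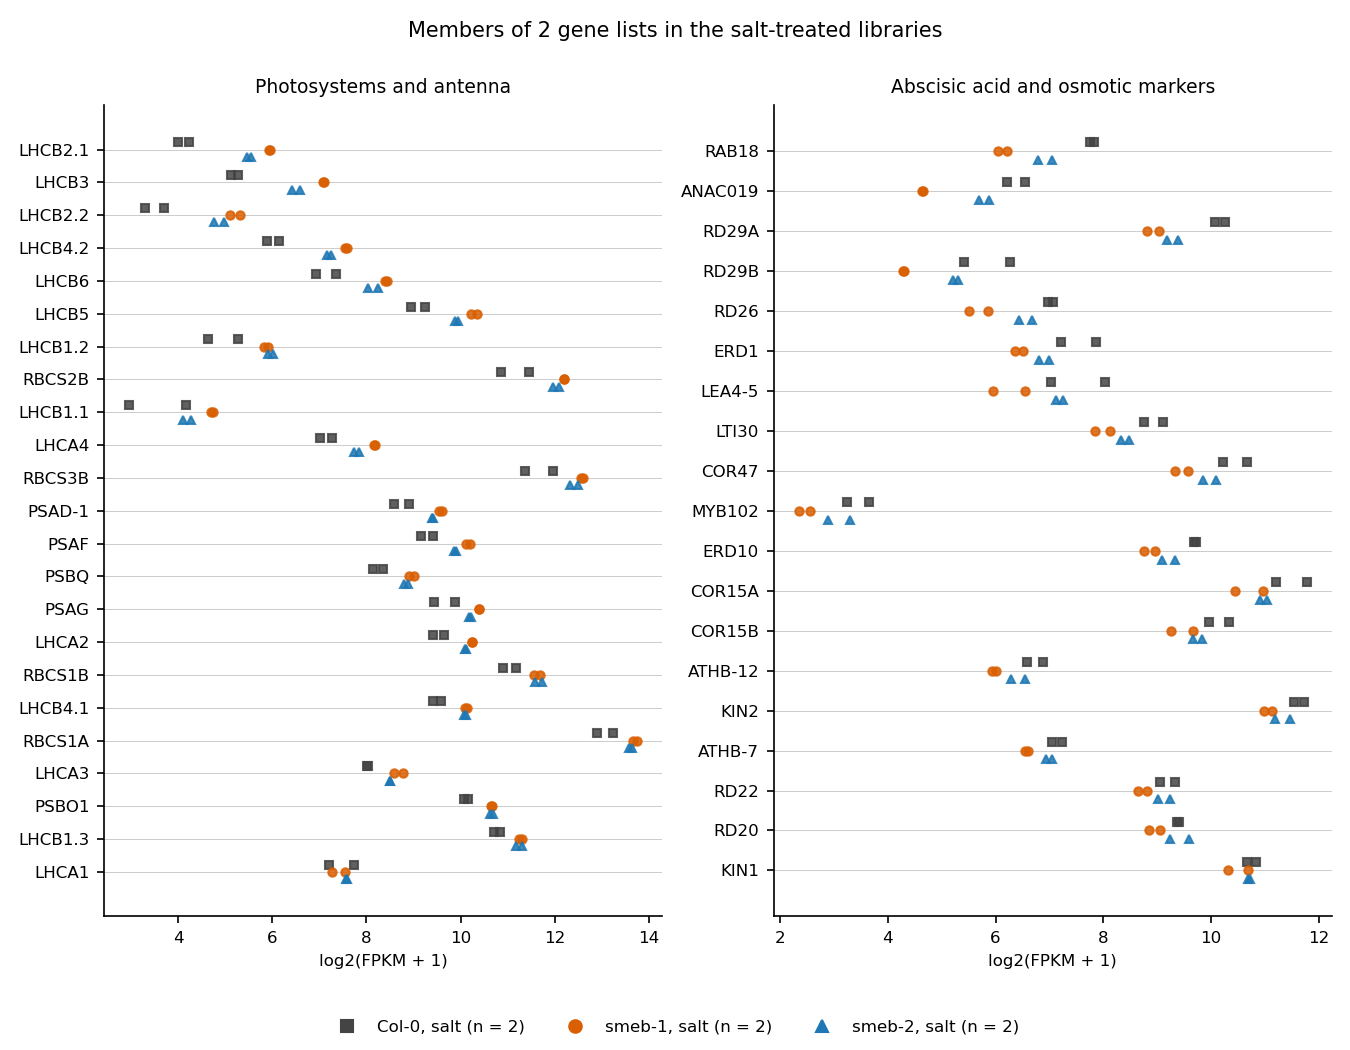
log2(FPKM + 1) in each salt-treated library for the 23 photosystem and antenna genes (left) and the 19 abscisic acid and osmotic markers (right), ordered by the difference between smeb and Col-0. The smeb points lie right of Col-0 on the left in all genes but LHCA1 and LHCB1.1, and on the right the mean of smeb-1 is below that of smeb-2 in all 19 genes.

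The clade A PP2C phosphatases, which hold back abscisic acid signalling and are themselves induced by it, were lower in 6 of 8 tested members, with 0 higher, a median of -0.481 and 4 that held. ABI1 had FPKM of 189 and 202 in Col-0, 111 and 121 in smeb-1 and 147 and 177 in smeb-2 (difference -0.51 ± 0.082, adjusted p = 0.00229, weighted 0.0323). HAB1 had FPKM of 68.0 and 82.4 in Col-0, 46.9 and 43.8 in smeb-1 and 59.1 and 61.1 in smeb-2 (-0.51 ± 0.082, adjusted p = 0.00236, weighted 0.0178). HAB2 had FPKM of 42.5 and 39.3 in Col-0, 31.1 and 32.8 in smeb-1 and 31.4 and 33.8 in smeb-2 (-0.33 ± 0.059, adjusted p = 0.00375, weighted 0.0373). All 3 were lowest in smeb-1 by the mean of its libraries. HAI3 held as well (-0.93 ± 0.19, adjusted p = 0.00674), and HAI1 and HAI2 did not pass. Of the 8, 8 were called lower in smeb-1 and 1 in smeb-2, and 0 were called between the lines. Among genes of hormone synthesis and breakdown 2 of 10 were higher, 3 lower and 5 did not pass. CYP707A3, which inactivates abscisic acid by hydroxylation, rose, with FPKM of 8.3 and 7.75 in Col-0, 15.7 and 14.6 in smeb-1 and 13.7 and 13.8 in smeb-2 (0.78 ± 0.087, adjusted p = 4.09e-04, weighted 0.00955). NCED3, the rate-limiting step of its synthesis under stress, fell in the mean of the lines, with FPKM of 37.5 and 18.4 in Col-0, 7.94 and 9.74 in smeb-1 and 16.2 and 16.7 in smeb-2 (-1.07 ± 0.21, adjusted p = 0.00653, weighted 0.0154), and its Col-0 library ending in 0 stood above all others. In smeb-2 alone 0 members of this list were called lower, so NCED3 was not called in that line. Without the Col-0 library ending in 0, NCED3 had an adjusted p of 0.00456, and without the one ending in 1, 1.53e-04.

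Windows upstream of genes in these lists were searched for short elements that stress factors are known to bind. The ABRE core (ACGTGNC), bound by abscisic acid responsive bZIP factors, was searched on both strands from 250 bases before to 50 after each annotated start, as was the CRT/DRE core (CCGAC) of the DREB and CBF factors. The ABRE core can overlap the G-box (CACGTG). Shown are the 250 bases before the start of 2 antenna and photosystem genes that rose and 2 marker genes that fell. They were chosen after the search as called members with a match and with no other annotated gene in the window, from TAIR10.1, with matches in capitals (the ABRE core in LHCB4.1, PSBQ and RD26, the CRT/DRE core in RD29A). A CRT/DRE core of LHCB4.1 and another of RD26 are left in lower case.
LHCB4.1, chr5:208616-208865, plus strand: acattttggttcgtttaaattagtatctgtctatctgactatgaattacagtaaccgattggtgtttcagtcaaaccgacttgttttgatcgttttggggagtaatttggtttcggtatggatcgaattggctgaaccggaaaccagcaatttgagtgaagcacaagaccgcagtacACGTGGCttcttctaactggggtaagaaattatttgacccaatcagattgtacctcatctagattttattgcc
PSBQ, chr4:2673244-2673493, minus strand: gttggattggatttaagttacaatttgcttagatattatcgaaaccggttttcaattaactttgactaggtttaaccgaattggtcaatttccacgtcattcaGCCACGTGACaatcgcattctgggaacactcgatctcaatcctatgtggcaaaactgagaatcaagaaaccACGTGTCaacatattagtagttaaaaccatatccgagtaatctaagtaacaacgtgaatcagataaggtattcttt
RD29A, chr5:21240467-21240716, plus strand: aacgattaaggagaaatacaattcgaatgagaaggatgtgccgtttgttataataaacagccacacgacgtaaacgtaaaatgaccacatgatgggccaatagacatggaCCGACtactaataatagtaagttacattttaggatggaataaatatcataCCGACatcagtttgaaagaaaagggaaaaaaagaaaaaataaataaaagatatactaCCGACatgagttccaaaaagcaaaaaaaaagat
RD26, chr4:13709171-13709420, minus strand: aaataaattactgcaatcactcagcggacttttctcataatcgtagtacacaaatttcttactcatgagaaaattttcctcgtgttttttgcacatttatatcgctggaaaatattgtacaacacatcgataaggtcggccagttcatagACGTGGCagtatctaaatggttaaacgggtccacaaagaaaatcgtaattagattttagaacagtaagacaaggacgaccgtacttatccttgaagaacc
PSBQ, here AT4G05180, encodes a subunit of the oxygen-evolving complex, and its first run of capitals holds 2 overlapping matches. The ABRE core was in 8 of 23 photosystem and antenna promoters (34.8%), in 9 of 19 marker promoters (47.4%) and in 11.7% of the 20143 tested genes with a promoter. It was in 14.1% of the promoters of genes higher in both lines and in 14.0% of those of genes lower in both lines. The CRT/DRE core was in 2 of 23 photosystem and antenna promoters (8.7%), in 7 of 19 marker promoters (36.8%) and in 16.2% of all, and in 14.2% of those higher and 19.9% of those lower in both lines. A match only describes the letters in the window.

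Genes of DNA replication and mitosis were higher in 16 of 18 tested members, with 0 lower, a median of 0.556 and 11 that held. KN, the syntaxin of the dividing cell plate, had FPKM of 10.7 and 10.04 in Col-0, 16.9 and 17.2 in smeb-1 and 15.6 and 14.0 in smeb-2 (difference 0.57 ± 0.061, adjusted p = 3.34e-04, weighted 0.0059). PCNA1, the replication clamp, had FPKM of 8.77 and 8.45 in Col-0, 14.2 and 16.9 in smeb-1 and 16.3 and 12.8 in smeb-2 (0.73 ± 0.10, adjusted p = 0.00111, weighted 0.0183). MCM7, of the replicative helicase, had FPKM of 6.18 and 4.54 in Col-0, 8.96 and 10.2 in smeb-1 and 10.2 and 9.17 in smeb-2 (0.75 ± 0.11, adjusted p = 0.00139, weighted 0.0109). No smeb library of these 3 genes was as low as a Col-0 library, a separation favoured by their choice by p. CYCB1;1 and CDKB2;2 did not pass. Without salt 9 members were higher and 0 lower with a median of 0.312, and no member was called in the interaction, in which 2016 genes were called and 5345 had an unadjusted p under 0.05. With 1 weight per group the interaction also called 0 of the 18.

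Genes that loosen the cell wall rose in part. Of 19 xyloglucan endotransglucosylases, which cut and rejoin wall xyloglucan, 10 were higher, 1 lower and 8 did not pass, with a median of 0.358. That is 57.9% called, beside 27.7% of all tested genes, with 7 higher and 1 lower in both lines. XTH14 had FPKM of 6.35 and 4.6 in Col-0, 29.1 and 21.9 in smeb-1 and 19.3 and 22.5 in smeb-2 (difference 1.90 ± 0.13, adjusted p = 6.66e-05, weighted 7.56e-04). XTH16 had FPKM of 53.6 and 45.8 in Col-0, 95.3 and 121 in smeb-1 and 103 and 95.2 in smeb-2 (1.04 ± 0.10, adjusted p = 2.74e-04, weighted 0.0036). In both genes the lines overlapped each other and neither overlapped Col-0, which their choice by p favours. XTH24 was lower, with FPKM of 149.7 and 259 in Col-0, 58.0 and 51.3 in smeb-1 and 106 and 109.8 in smeb-2 (-1.35 ± 0.20, adjusted p = 0.00166, weighted 0.0113). Of 15 expansins 8 were higher, 0 lower and 7 did not pass (53.3% called), with a median of 0.357. In smeb-1 8 were higher and 0 lower, in smeb-2 3 higher and 1 lower, and 3 were higher in both lines. EXPA7 and EXPA18, expansins of root hair cells, rose, with FPKM of 6.15 and 5.29 in Col-0, 16.7 and 12.995 in smeb-1 and 11.9 and 13.1 in smeb-2 for EXPA7 (1.12 ± 0.11, adjusted p = 2.57e-04, weighted 0.00411) and 1.68 and 0.647 in Col-0, 12.3 and 7.45 in smeb-1 and 5.42 and 5.12 in smeb-2 for EXPA18 (1.96 ± 0.20, adjusted p = 2.85e-04, weighted 0.00227).

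Root genes did not move as 1 group. Of 13 tested root markers 6 were higher, 0 lower and 7 did not pass, and 3 held. That is 46.2% called, beside 27.7% of all tested genes, with 3 higher and 0 lower in both lines. WOX5, of the quiescent centre, had FPKM of 1.44 and 2.32 in Col-0, 4.41 and 7.66 in smeb-1 and 4.4 and 4.52 in smeb-2 (difference 1.103 ± 0.18, adjusted p = 0.00286, weighted 0.0271), and PRP3, of root hairs, 1.71 and 1.33 in Col-0, 8.9 and 4.24 in smeb-1 and 3.22 and 4.05 in smeb-2 (1.199 ± 0.20, adjusted p = 0.00311, weighted 0.0354). The Casparian strip and suberin list, genes of the root endodermis, was lower in part, with 8 of 17 lower, 3 higher, 6 not passed and a median of -0.437. That is 64.7% called, beside 27.7% of all tested genes, with 4 lower and 2 higher in both lines. CASP1 and CASP2, scaffold proteins of the strip, fell: FPKM was 16.2 and 17.1 in Col-0, 6.81 and 5.56 in smeb-1 and 8.04 and 7.92 in smeb-2 for CASP1 (-1.14 ± 0.12, adjusted p = 2.85e-04, weighted 0.0071) and 4.82 and 4.66 in Col-0, 1.12 and 1.53 in smeb-1 and 1.52 and 1.42 in smeb-2 for CASP2 (-1.26 ± 0.11, adjusted p = 1.34e-04, weighted 0.00305). PER64, a peroxidase of lignin deposition in the strip, had FPKM of 8.35 and 8.75 in Col-0, 5.04 and 3.24 in smeb-1 and 3.98 and 4.3 in smeb-2 (-0.90 ± 0.12, adjusted p = 9.99e-04, weighted 0.0145). Without salt 5 members were higher (HORST, ASFT, SGN1, CYP86B1 and SGN3) and KCS2 lower, and the FPKM of CASP1 was 22.4 and 19.5 in Col-0, 15.6 and 15.2 in smeb-1 and 21.1 and 28.7 in smeb-2. The smeb effect was lower in salt than without it in 8 of the 17, in 5 also with 1 weight per group.

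As a check of tissue composition, summed FPKM of the root markers was 447 and 497 in Col-0, 453 and 492 in smeb-1 and 507 and 553 in smeb-2 in salt. That of 15 shoot and guard cell markers was 2920.4 and 2609.6, 2498 and 2496 and 2667 and 2781 in the same order, with 1 member higher, 1 lower and 13 not passed. Of 14 seed storage and late embryo genes 10 were below the filter and 0 of the other 4 passed, with sums of at most 6.95 FPKM in any salt-treated library. The part of tissue composition in the gene groups above was not tested.

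**Figure D4:**
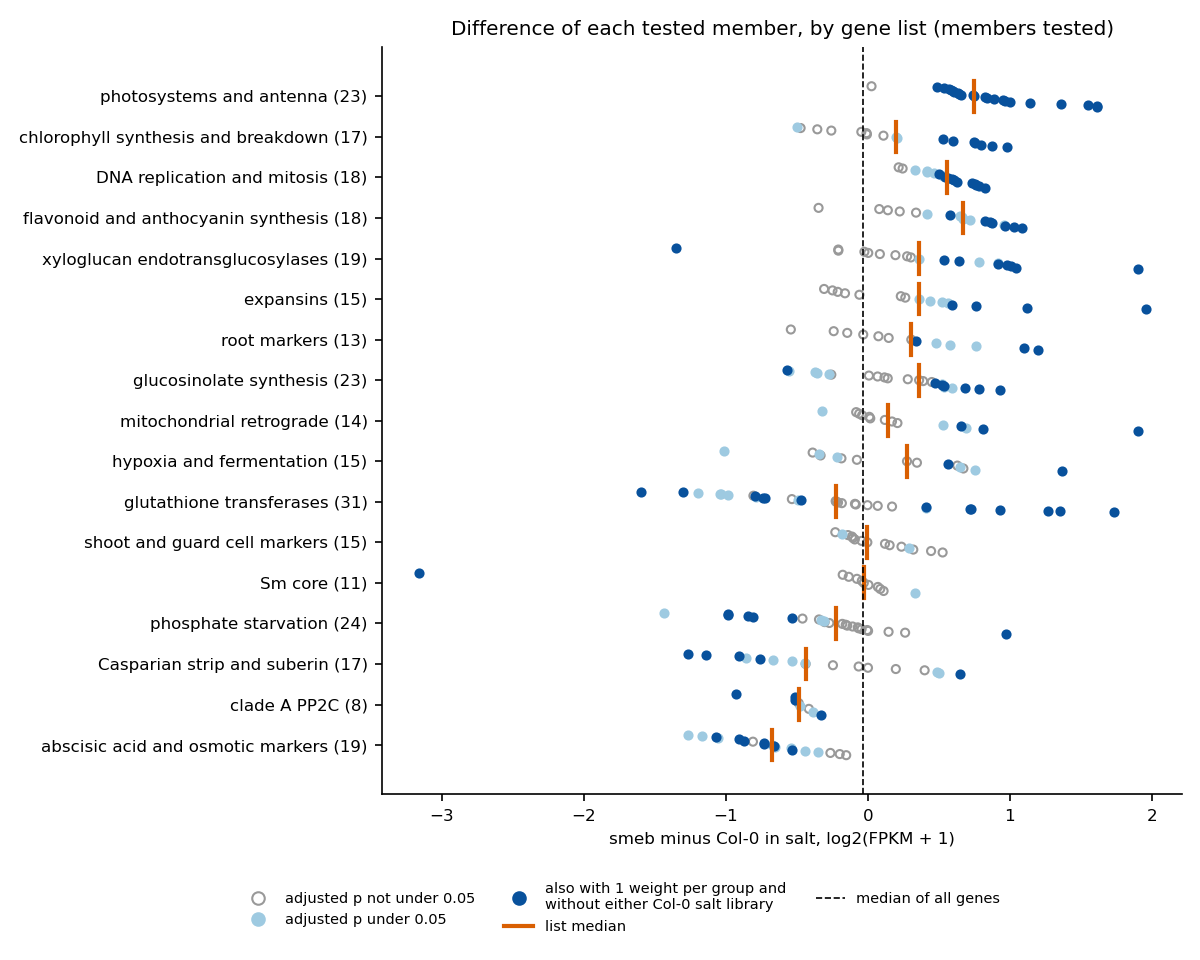
Difference between smeb and Col-0 in salt on the log2(FPKM + 1) scale for each tested member of 17 of the 42 gene lists (number tested in brackets), picked for display. Open points did not pass an adjusted p under 0.05, light points passed, dark points held with 1 weight per group and without either Col-0 salt library. Orange bars are list medians (0.746 for photosystems and antenna, -0.674 for abscisic acid markers) and the dashed line is the median of all genes.

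Flavonoid and anthocyanin genes were higher in 13 of 18 tested members, with 0 lower and a median of 0.667, and 7 held. LDOX, a late enzyme of anthocyanin synthesis, had FPKM of 47.8 and 30.5 in Col-0, 84.7 and 98.1 in smeb-1 and 54.3 and 56.0 in smeb-2 (difference 0.88 ± 0.15, adjusted p = 0.00326, weighted 0.0138), and CHS, the entry enzyme, 213 and 127 in Col-0, 336 and 336 in smeb-1 and 241 and 263 in smeb-2 (0.82 ± 0.18, adjusted p = 0.00874, weighted 0.0337). The regulators MYB75 and MYB90 did not pass, and their Col-0 libraries differed most, at 34.1 and 10.9 FPKM for MYB75. The Col-0 library ending in 1 was below the one ending in 0 by a median of 0.733 over this list. In smeb-1 13 members were called and in smeb-2 3, and 0 of the 18 were called between the lines.

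Genes of mitochondrial retrograde signalling, which report impaired respiration to the nucleus, were higher in 5 of 14 members, lower in 1 and not passed in 8. That is 42.9% called, beside 27.7% of all tested genes, with 3 higher and 0 lower in both lines. AOX1A, the alternative oxidase, had FPKM of 114 and 128 in Col-0, 165 and 176 in smeb-1 and 207 and 221 in smeb-2 (difference 0.65 ± 0.073, adjusted p = 4.06e-04, weighted 0.0066), and OM66, an outer membrane ATPase, 63.1 and 57.1 in Col-0, 95.8 and 105 in smeb-1 and 113 and 110.3 in smeb-2 (0.81 ± 0.11, adjusted p = 9.50e-04, weighted 0.0183). In both, smeb-2 was highest and Col-0 lowest. Together with NDB4 these are the 3 that held, while AOX1D, NDA1, NDA2 and NDB2 did not pass. Of the genes that scavenge reactive oxygen 6 of 23 were higher and 3 lower, led by APX2, a cytosolic ascorbate peroxidase, with FPKM of 1.66 and 1.58 in Col-0, 4.49 and 3.6 in smeb-1 and 4.88 and 5.19 in smeb-2 (1.07 ± 0.12, adjusted p = 5.08e-04, weighted 0.0112). Of the scavenging genes 39.1% were called, with 2 higher and 1 lower in both lines. Of 7 respiratory burst oxidases 4 were higher (57.1%), 1 of them in both lines, and 0 held.

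Glutathione transferases, which conjugate electrophiles and xenobiotics, went both ways, with 8 of 31 higher, 12 lower and 11 not passed. That is 64.5% called, beside 27.7% of all tested genes, with 7 higher and 5 lower in both lines. Of these calls 7 rises and 6 falls held in the mean of the lines. GSTU9 had FPKM of 20.9 and 20.7 in Col-0, 58.9 and 58.7 in smeb-1 and 51.9 and 49.5 in smeb-2 (difference 1.35 ± 0.089, adjusted p = 4.86e-05, weighted 0.00136) and GSTU27 29.0 and 29.0 in Col-0, 52.8 and 52.0 in smeb-1 and 45.4 and 44.7 in smeb-2 (0.72 ± 0.057, adjusted p = 1.05e-04, weighted 0.00216). GSTU7, with FPKM of 68.1 and 170.1 in Col-0, 43.9 and 35.5 in smeb-1 and 41.7 and 53.5 in smeb-2, was lower (-1.30 ± 0.28, adjusted p = 0.0086), but its Col-0 libraries differed widely. Over the list the Col-0 library ending in 1 was above the one ending in 0 by a median of 0.401, and without the library ending in 0 there were 16 lower members and without the one ending in 1, 6. Members of this family can share reads.

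Of the 23 genes that make glucosinolates, sulfur-rich defence compounds, 9 were higher, 5 lower and 9 did not pass, with 6 and 1 that held. That is 60.9% called, beside 27.7% of all tested genes, with 5 higher and 2 lower in both lines. MYB28, a regulator of the aliphatic branch, which starts from methionine, had FPKM of 20.8 and 15.04 in Col-0, 30.5 and 30.8 in smeb-1 and 27.6 and 27.5 in smeb-2 (difference 0.69 ± 0.10, adjusted p = 0.00165, weighted 0.00644), and SOT18, a late sulfotransferase, 28.1 and 30.1 in Col-0, 45.8 and 40.7 in smeb-1 and 42.9 and 40.8 in smeb-2 (0.53 ± 0.07, adjusted p = 9.46e-04, weighted 0.0143). MYB51, a regulator of the indolic branch, which starts from tryptophan, had FPKM of 16.8 and 19.3 in Col-0, 10.6 and 11.8 in smeb-1 and 12.9 and 12.1 in smeb-2 (-0.57 ± 0.085, adjusted p = 0.00166, weighted 0.0215). Without salt 11 of the 23 were lower and 1 higher, and the smeb effect was higher in salt in 16.

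Phosphate starvation genes differed less in salt than without it. In salt 8 of 24 were lower, 1 higher and 15 did not pass, with a median of -0.225. That is 37.5% called, beside 27.7% of all tested genes, with 5 lower and 1 higher in both lines. Without salt 19 were lower and 1 higher with a median of -1.55, and the effect was higher in salt in 18, in 16 also with 1 weight per group. GDPD1, a glycerophosphodiesterase, had FPKM of 24.0 and 17.7 in Col-0, 8.64 and 8.9 in smeb-1 and 11.2 and 11.2 in smeb-2 in salt (difference -0.98 ± 0.13, adjusted p = 0.00101, weighted 0.0109), and RNS1, a secreted ribonuclease, 54.6 and 59.2 in Col-0, 22.2 and 27.5 in smeb-1 and 37.8 and 41.4 in smeb-2 (-0.84 ± 0.11, adjusted p = 9.85e-04, weighted 0.0171). PHT1;1, a phosphate transporter, was higher, with 36.5 and 42.0 in Col-0, 111 and 72.7 in smeb-1 and 62.9 and 71.6 in smeb-2 (0.97 ± 0.15, adjusted p = 0.00229, weighted 0.0295). PS2, a phosphatase that leads the change between treatments, had 8.96 and 6.62 in Col-0, 7.8 and 7.62 in smeb-1 and 7.42 and 6.52 in smeb-2 in salt and 116 and 111 in Col-0, 7.9 and 9.53 in smeb-1 and 7.08 and 8.47 in smeb-2 without it.

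Hypoxia genes showed the opposite shift. Without salt 13 of 15 were higher in smeb and 0 lower with a median of 1.66, beside 11.6% higher and 13.0% lower of all tested genes. In salt 4 were higher, 3 lower and 8 did not pass (46.7% called, beside 27.7% of all tested genes). In both lines 2 were higher and 0 lower, and 2 rises and 0 falls held. The smeb effect was lower in salt in 11, in 6 also with 1 weight per group. ADH1, the alcohol dehydrogenase of fermentation, had FPKM of 101 and 125 in Col-0, 51.3 and 43.0 in smeb-1 and 61.7 and 67.6 in smeb-2 in salt and 11.6 and 10.3 in Col-0, 70.6 and 89.5 in smeb-1 and 45.6 and 86.4 in smeb-2 without it. Its smeb libraries were thus below Col-0 in salt (-1.01 ± 0.21, adjusted p = 0.00837, weighted 0.1) and above it without salt (2.59 ± 0.21, adjusted p = 5.02e-05). The fall of ADH1 in salt did not hold and was not called in both lines.

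**Figure D5:**
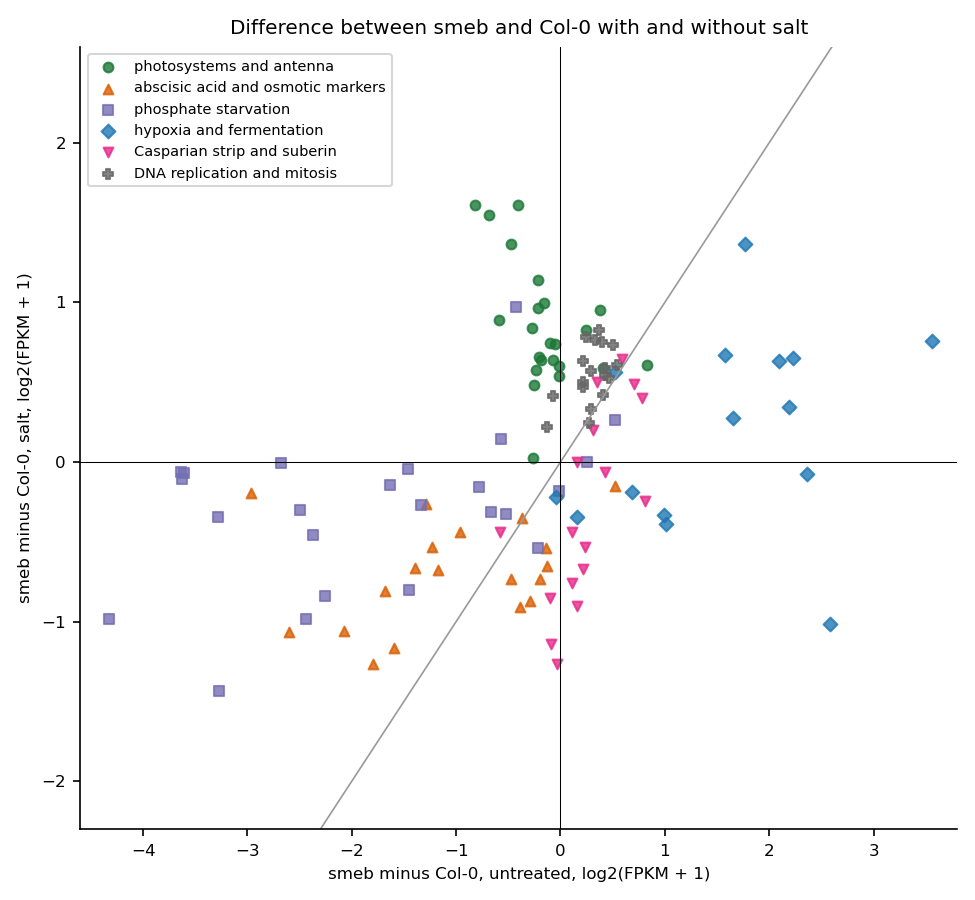
Difference between smeb and Col-0 without salt (x) and in salt (y), log2(FPKM + 1), for the tested members of 6 gene lists, picked for display. Each point is a gene and the grey line marks equal differences. The median of the photosystem and antenna genes is 0.746 in salt and -0.209 without it, that of the phosphate starvation genes -0.225 and -1.55, and that of the Casparian strip and suberin genes -0.437 and 0.216.

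Of the genes higher in both lines in salt, 659 of 1298 were also called higher without salt and 69 lower, and of those lower in both lines, 417 of 1015 were also called lower and 25 higher. The background of the comparison without salt was 11.6% higher and 13.0% lower of the tested genes. In 638 of the 2313 genes the effect with and without salt differed, where 9.96% of all tested genes passed that interaction. Since these genes were called in salt, and the difference in salt is part of the interaction, nothing is read from the count.

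Genes of ion transport and osmolytes were called at shares near the 27.7% of all tested genes. Of 18 transport genes 1 was higher, 3 lower and 14 did not pass (22.2% called). NHX1, the vacuolar sodium and proton exchanger, was lower, with FPKM of 100.1 and 104 in Col-0, 70.8 and 70.5 in smeb-1 and 75.0 and 89.7 in smeb-2 (difference -0.42 ± 0.068, adjusted p = 0.00246, weighted 0.0334), as was CAX1, a calcium and proton exchanger, with 287 and 375 in Col-0, 178 and 172 in smeb-1 and 202 and 234 in smeb-2 (-0.75 ± 0.11, adjusted p = 0.00131, weighted 0.00936). Of 12 proline and raffinose genes 3 were lower and 0 higher (25% called), with P5CS2, of proline synthesis, at 173 and 193 in Col-0, 129 and 129 in smeb-1 and 132 and 152 in smeb-2 (-0.43 ± 0.078, adjusted p = 0.00426, weighted 0.0479). In the floral list FLC, a repressor of flowering, was lower, with FPKM of 1.79 and 2.34 in Col-0, 0.106 and 0.159 in smeb-1 and 0.0706 and 0 in smeb-2 (-1.49 ± 0.12, adjusted p = 1.10e-04, weighted 0.00212). It was the member of the 14 tested that held.

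In 9 other hormone and stress lists genes were called in both directions, between 22.2% and 50% of the tested members against 27.7% of all tested genes, with list medians between -0.197 and 0.245. Of 16 jasmonate synthesis genes 4 were higher and 4 lower, of 9 jasmonate targets 2 and 1, of 16 MYC and JAZ genes 1 and 3, of 18 ethylene genes 2 and 5, and of 18 auxin early response genes 1 and 3. The MYC and JAZ calls differed by line, with 0 higher and 6 lower in smeb-1 and 2 higher and 0 lower in smeb-2. CYP94B3, which inactivates jasmonate, fell, with FPKM of 35.5 and 49.7 in Col-0, 17.03 and 20.8 in smeb-1 and 21.8 and 24.3 in smeb-2 (difference -0.98 ± 0.14, adjusted p = 0.00143, weighted 0.0123). AOC2, an allene oxide cyclase of jasmonate synthesis, rose, with FPKM of 630.4 and 425 in Col-0, 872 and 898 in smeb-1 and 835 and 924 in smeb-2 (0.77 ± 0.14, adjusted p = 0.00387, weighted 0.0175). Of 21 stress WRKY factors 4 were higher and 6 lower, and WRKY40, a repressor in defence and abscisic acid signalling, held, with FPKM of 28.4 and 41.6 in Col-0, 12.5 and 12.0 in smeb-1 and 20.1 and 19.2 in smeb-2 (-1.098 ± 0.14, adjusted p = 7.04e-04, weighted 0.00507). Of 9 CBF and DREB factors 2 were higher and 2 lower, of 15 heat shock genes 2 and 2, and of 15 genes of the unfolded protein response 6 and 1, of which 0 held. Calls differed by line: of the heat shock genes 1 was higher and 7 lower in smeb-1, and 2 and 0 in smeb-2. Of the CBF and DREB factors 1 was higher and 3 lower in smeb-1, and 2 and 0 in smeb-2. In the unfolded protein response list 1 gene was higher and 0 lower in both lines. HSP18.2, a small heat shock protein, had FPKM of 2.53 and 2.45 in Col-0, 8.7 and 5.62 in smeb-1 and 11.4 and 8.36 in smeb-2 (1.41 ± 0.15, adjusted p = 3.55e-04, weighted 0.00693).

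The nutrient and clock lists were mixed as well, with medians between -0.167 and 0.134. Of 13 nitrate genes 2 were higher and 5 lower (53.8% called, beside 27.7% of all tested genes), with 0 higher and 2 lower in both lines. Of 17 iron deficiency genes 3 were higher and 2 lower (29.4%), and 0 were called in both lines. Of 16 sulfate and glutathione genes 3 were higher and 2 lower (31.2%), and of 19 clock genes 2 and 5 (36.8%). NIA1, a nitrate reductase, had FPKM of 55.6 and 103 in Col-0, 31.3 and 27.5 in smeb-1 and 40.2 and 43.7 in smeb-2 (difference -1.09 ± 0.21, adjusted p = 0.00512, weighted 0.0204), with the Col-0 library ending in 1 far above the other. BGLU28, a glucosidase induced by sulfur deficiency, had FPKM of 0.968 and 0.743 in Col-0, 3.28 and 4.45 in smeb-1 and 4.58 and 3.54 in smeb-2 (1.41 ± 0.15, adjusted p = 3.56e-04, weighted 0.00797). Of RCD1 and its 5 SRO relatives 1 was lower, SRO1 (-0.29 ± 0.067, adjusted p = 0.0127, weighted 0.0779), and it did not hold.

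Splicing machinery genes were called in shares from 9.09% to 25% by list, beside 27.7% of all tested genes. In the Sm core list 1 of 11 was lower, SmEb, and 1 higher, SMD1A (0.33 ± 0.091, adjusted p = 0.0246), which did not hold. Of 11 LSm genes 1 was called and of 20 SR factors 5, with 0 in either list that held. Of 20 genes for U1 and U2 proteins and their partners 5 were called, and U1A held (0.36 ± 0.06, adjusted p = 0.0029, weighted 0.0319). Genes with SmEb-dependent splicing events in the authors' deposited table numbered 131, of which 20 were higher, 20 lower and 91 not passed in salt. That is 30.5% called, near the background of 27.7%.

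Between the lines in salt 36 genes were higher and 22 lower in smeb-2 than in smeb-1. AT4G28140, annotated as an integrase-type DNA-binding protein, had FPKM of 8.24 and 4.28 in Col-0, 2.23 and 2.48 in smeb-1 and 8.65 and 8.26 in smeb-2 (smeb-2 minus smeb-1 1.49 ± 0.22, adjusted p = 0.0329). UPB1, a bHLH factor that controls reactive oxygen balance in the root tip, had 26.1 and 36.2 in Col-0, 7.61 and 10.03 in smeb-1 and 20.1 and 22.8 in smeb-2 (1.1995 ± 0.15, adjusted p = 0.0255), and PUB19, a U-box ubiquitin ligase, 34.2 and 26.7 in Col-0, 10.5 and 9.05 in smeb-1 and 20.9 and 25.1 in smeb-2 (1.15 ± 0.13, adjusted p = 0.02). In all 3 smeb-1 was lowest. AT5G11330, annotated as an oxidoreductase, was lower in smeb-2, with 44.8 and 56.3 in Col-0, 50.3 and 44.1 in smeb-1 and 15.9 and 16.0 in smeb-2 (-1.51 ± 0.10, adjusted p = 6.51e-04). AT2G18750, annotated as a calmodulin-binding protein, had 31.9 and 35.6 in Col-0, 57.7 and 51.1 in smeb-1 and 25.4 and 25.9 in smeb-2 (-1.05 ± 0.086, adjusted p = 0.00162), so that smeb-1 was above and smeb-2 below Col-0. It is the next gene after SmEb on the same strand, at chr2:8125128-8128702, starting 50 bases after the end of SmEb.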

How the data were processed

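Gene expression was deposited by the authors as FPKM, 1 column per library, and a table of splicing events was deposited with FDR-adjusted p-values, of which the gene identifiers of the SmEb-dependent events were used. Trimmomatic 0.32 and TopHat2 2.0.13 with the TAIR10 build are named per the submitters' processing notes; the counting step, its use of strand and its treatment of reads shared by near-identical genes are not stated in the available sources. FPKM keeps no read totals, so no counting intervals are given.

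Genes that reached an FPKM of 1 in 2 or more of 12 libraries were tested with limma 3.58.1 (R 4.3.3, mean-variance trend) on log2(FPKM + 1), with 6 group means, which leaves 6 residual degrees of freedom. Tests were two-sided, and p-values were adjusted by the Benjamini-Hochberg method over all 20251 genes. The procedure was tested on simulated data with few changed genes, 200 of 20251. With the unequal group spread of these libraries 26.1% of calls in the mean of the lines were false, well above the threshold of 0.05. Among the 191 genes called in both lines 4.71% were false, close to that threshold. The noise was independent between genes and far more genes were called in the data, so these shares may not carry over. The members and the 42 gene lists (691 genes, 658 tested) were chosen with earlier results of these data known. Genes named by rule were SmEb, SmEa and RCD1, the 10 rises and 10 falls with the widest gap between smeb and Col-0 salt libraries among genes called in each line at a mean FPKM of at least 5, in each list the called genes ranked 1 to 3 by p, the 5 genes that differed most within the Col-0 salt pair, and the 3 higher and 3 lower genes with the largest called difference between the lines and in the interaction. Other list members in the text were named after their values had been seen. Identifiers were matched to RefSeq TAIR10.1 for 32817 of 33559 genes, and promoters, coordinates and product names come from it. Alternatives changed the pseudocount, filter, scaling, samples, weights, minimum fold and replicate block, or left out each library.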

Additional observations from a re-analysis of the deposited data

Results flagged for a closer look

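Of the 147 genes named by rule, 71 passed the interaction test of limma (adjusted p under 0.05), which compares the difference between smeb and Col-0 in salt with that without salt; 9.96% of all tested genes passed. Since these genes were chosen by their values in salt or by the interaction itself, nothing is read from the count. The values of 15 follow, those that passed among SmEb, the genes with the widest gaps and the 6 chosen for the size of this very difference (PS2, RD20, U1.5, ADH1, TH8 and AT4G30097). The difference in salt minus that without salt was 2.17 for AT2G04070, 2.12 for AT1G34050, 1.96 for AT3G54530, 1.48 for ABCB11 and 1.05 for NDB4, each of which was higher in smeb in salt, with adjusted p from 9.77e-05 to 0.00922. PS2 (3.58) and RD20 (2.77) were lower in smeb without salt and not called in salt. SmEb (-1.06) and HOL2 (-1.30) were farther below Col-0 in salt than without it. MYB121 (-2.16) was lower in smeb in salt and near an FPKM of 0 in every library without salt. HEI10 (-0.737) was higher in smeb in both treatments, by less in salt. ADH1 (-3.60) and TH8, a thioredoxin (-3.03), were higher in smeb without salt. In salt ADH1 was lower, a fall that did not hold, and TH8 was not called (-0.34, adjusted p = 0.222). Without the Col-0 salt library ending in 0 TH8 was called lower in salt (-0.78, adjusted p = 0.00122). The values of U1.5 (4.25) and AT4G30097 (-6.06) depend on the pseudocount, since a whole group is listed at 0. With 1 weight per group U1.5 and AT4G30097 no longer passed (adjusted p = 0.0541 and 0.0796), and the other 13 did, with adjusted p from 2.18e-05 to 0.04.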

How the results depend on the processing

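The counts of called genes stayed within 1.5 times of the reported ones with a pseudocount of 0.1, without a filter, with a filter at an FPKM of 5, and with median-of-ratios or quantile scaling. With only the salt groups in the fit, which leaves 3 residual degrees of freedom, 2091 genes were called for the mean of the lines, 2108 for smeb-1, 290 for smeb-2, 266 for both lines and 4 between the lines. With 1 weight per group the counts in that order were 1828, 2572, 847, 745 and 258, and 1225 for the interaction. With a minimum of 2-fold they were 327, 546, 224, 153 and 18, and 498 for the interaction. The combination of weights and either Col-0 salt library left out, chosen after the data had been seen, called 1685 for the mean and 723 for both lines. Leaving out 1 library at a time gave 2982 to 7918 for the mean, 2805 to 8002 for smeb-1, 695 to 6162 for smeb-2, 628 to 5338 for both lines, 4 to 610 between the lines and 815 to 5006 for the interaction. Values in between that moved by over 1.5 times were 3050 and 3522 for smeb-1, 964 and 1811 for smeb-2, 874, 1435 and 1459 for both lines, 5, 7, 12, 13 and 97 between the lines, and 1086 and 1264 for the interaction. The highest counts came without the Col-0 salt library ending in 0, except between the lines, where 609 genes were called without that library and 610 without the one ending in 1. The lowest counts came without the Col-0 salt library ending in 1 for the mean, the smeb-1 salt library ending in 1 for smeb-1, the smeb-2 salt library ending in 0 for smeb-2 and for both lines, the smeb-1 salt library ending in 0 between the lines, and the Col-0 control library ending in 1 for the interaction. A group left with 1 library takes its spread from the others. The cause of these shifts was not tested.

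The column suffixes do not pair the libraries: correlations of deviations between same-numbered libraries ran from -0.125 to 0.112. With the suffix as a replicate block 5468 genes were called for the mean, 5414 for smeb-1, 2567 for smeb-2, 2143 for both lines, 65 between the lines and 1940 for the interaction. Over all named genes and alternatives 2799 results kept their direction and side of the threshold, 258 no longer passed, 7 newly passed and 9 changed direction, none of them called with or without the alternative. Without the Col-0 salt library ending in 0 the difference of AT4G28140 turned to 0.0932 and that of PS2 to 0.129. Without the one ending in 1, TH8 turned to 0.0995, AT3G01319 to 2.32, AT1G11055 to -0.811 and AT5G04790 to -1.24. Without the smeb-1 salt library ending in 1, AT3G01319 turned to 0.75 and AT5G04790 to -0.0605, and without the smeb-2 salt library ending in 0, AT3G01319 turned to 0.88.

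Read depth is unknown, genes under an FPKM of 1 are compressed by the pseudocount, and 2 libraries per group limit what each comparison can resolve.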
